A study of Mus musculus with 13 samples.

Results

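A set of 8 genes of the endothelium, the cell layer that lines blood vessels, were followed in 13 cutaneous melanomas of mice. The genes were chosen by name, 1 probe set each on the Affymetrix mouse array, and all 8 were found among the 22690 probe sets deposited. They were Pecam1 (probe set 1421287_a_at), Cdh5 (1422047_at), Kdr (1449379_at), Flt1 (1419300_at), Tek (1418788_at), Tie1 (1416238_at), Eng (1417271_a_at) and Cd34 (1416072_at). The pairing of probe set and gene came from the rule that chose them. No table used here pairs the other probe sets of the array with genes, so further probe sets of these genes and markers of other cell types, or of the melanoma cells themselves, were not analysed here.

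All mice carried a transgene for HGF/SF, a growth factor, driven by a metallothionein promoter, on a mostly FVB/N background with a C57BL/6 share, and all tumors followed UV irradiation, given once to pups aged 3.5 days. The ARF-deficient group held 6 tumors, of which 1 was ARF null and 5 were ARF heterozygous. The INK4a-deficient group held 7 tumors, of which 4 were INK4a null and 3 were INK4a heterozygous. ARF and INK4a are both encoded by Cdkn2a, and no tumor with both intact was among the arrays. The titles of the 6 ARF tumors name Ink4a while their genotype labels name ARF, and the genotype labels were followed. Tumors are called here by the numbers in their titles. The labels do not say which mouse a tumor came from or how old the mice were at collection, so p-values measure only the spread between these tumors.

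Endothelial cells are held together at their junctions by VE-cadherin, the product of Cdh5, and by PECAM-1 (CD31), the product of Pecam1. Growth of new vessels is driven mainly by VEGF-A, which signals through the receptor VEGFR2 (Kdr) and is also bound with high affinity by VEGFR1 (Flt1), which can hold it back from VEGFR2. Angiopoietins act through TIE2 (Tek), whose relative TIE1 modulates it, and endoglin (Eng) is a co-receptor for ligands of the TGF-beta and BMP family on activated endothelium. CD34 is a sialomucin of vessel walls that is also carried by blood progenitors and by stromal cells of connective tissue, and PECAM-1 is also found on platelets and some leukocytes. Factors of the ETS family, which recognise a GGAA core, are known for their part in the transcription of many endothelial genes.

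Windows of 250 bases before the start that a RefSeq promoter table gives (build GRCm38.p6) are shown for 4 genes, chosen after their values were seen: Cd34, Tek and Flt1, which moved together over the tumors, and Eng, which moved against them. Pecam1, which moved with the first 3, had no window to show. For Tek, Flt1 and Kdr the start in the table lies inside the annotated span of the gene, so that their windows overlap it partly (Tek) or wholly (Flt1 and Kdr), and the table does not name the transcript. They lie at chr1:194938571-194938820 (plus strand) for Cd34, chr4:94739039-94739288 (plus strand) for Tek, chr5:147726012-147726261 (minus strand) for Flt1 and chr2:32646345-32646594 (plus strand) for Eng. The letters GGAAG, a core of ETS sites, and its complement CTTCC are in capitals, and each sequence runs 5′ to 3′ toward the gene.
Cd34: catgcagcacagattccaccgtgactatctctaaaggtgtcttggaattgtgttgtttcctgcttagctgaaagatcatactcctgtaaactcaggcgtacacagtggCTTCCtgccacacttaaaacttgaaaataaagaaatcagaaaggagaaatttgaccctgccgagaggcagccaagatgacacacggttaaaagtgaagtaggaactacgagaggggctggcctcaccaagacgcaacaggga
Tek: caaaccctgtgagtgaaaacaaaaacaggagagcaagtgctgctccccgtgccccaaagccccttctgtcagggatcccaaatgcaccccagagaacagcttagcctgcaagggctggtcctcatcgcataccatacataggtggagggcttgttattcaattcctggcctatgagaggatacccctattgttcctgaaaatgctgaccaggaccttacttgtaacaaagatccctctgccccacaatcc
Flt1: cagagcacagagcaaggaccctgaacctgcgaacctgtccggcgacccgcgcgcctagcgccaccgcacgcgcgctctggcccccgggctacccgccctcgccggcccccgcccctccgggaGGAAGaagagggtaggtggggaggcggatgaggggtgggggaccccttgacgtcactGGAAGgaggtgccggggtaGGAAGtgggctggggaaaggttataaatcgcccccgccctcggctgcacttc
Eng: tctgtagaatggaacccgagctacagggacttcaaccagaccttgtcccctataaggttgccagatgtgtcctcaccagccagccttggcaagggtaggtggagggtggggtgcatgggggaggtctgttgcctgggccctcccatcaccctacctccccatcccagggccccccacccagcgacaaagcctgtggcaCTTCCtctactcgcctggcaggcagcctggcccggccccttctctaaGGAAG
GGAAG on either strand occurred in 5 of the 6 windows that could be read, against 64.1% of 32851 windows of the same length, which makes it a common string in any promoter. Tie1 held 6 copies, Flt1 held 3, Eng held 2, Kdr and Cd34 held 1 each and Tek held 0. GATAA, a core of GATA sites, on either strand was in 0 of the 6 windows, against 22.6% of all windows. TATAAA on either strand was in 1 of the 6, that of Flt1, against 12.4% of all windows. A match is a run of letters and not a measured site. Tek and Cd34 followed each other most closely over the tumors and did not share GGAAG in these windows. Whether the letters in a window bear on how a gene moved was not tested. The shorter core GGAA was not counted, and the windows of both Tek and Cd34 hold it or its complement TTCC. Of Pecam1 and Cdh5, no window was used here.

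The values are log values that the authors centred on the median of the 13 tumors for each probe set, so 0 is the middle tumor and a value is a difference from it, read as log2. They hold no expression level: how strongly any of these genes was expressed, or which of them was the most abundant, cannot be read, and the presence of endothelium in the samples could not be checked by level. In bulk tumor tissue, fewer endothelial cells and less RNA of a gene per cell cannot be told apart. Precision is limited by how many arrays there were.

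The genes varied to very different extents between tumors. Cd34 had the widest spread, with an SD of 0.87 over the 13 tumors, larger than that of 93.4% of the 22626 probe sets that are not controls. Tek (SD 0.78, above 91.4% of probe sets), Pecam1 (SD 0.62, 86.5%), Flt1 (SD 0.58, 84.5%) and Eng (SD 0.53, 81.9%) also lay in the upper part of the array. Kdr (SD 0.31, 57.6%) and Tie1 (SD 0.27, 50.2%) were in the middle, and Cdh5 varied least, with an SD of 0.14, above only 17.1% of probe sets. In fold terms the lowest and highest tumors were 9.54-fold apart for Cd34, 5.98-fold for Tek and 1.37-fold for Cdh5. A narrow spread in centred values can come with any level and says nothing of how well a probe set measured its gene.

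**Figure D1:**
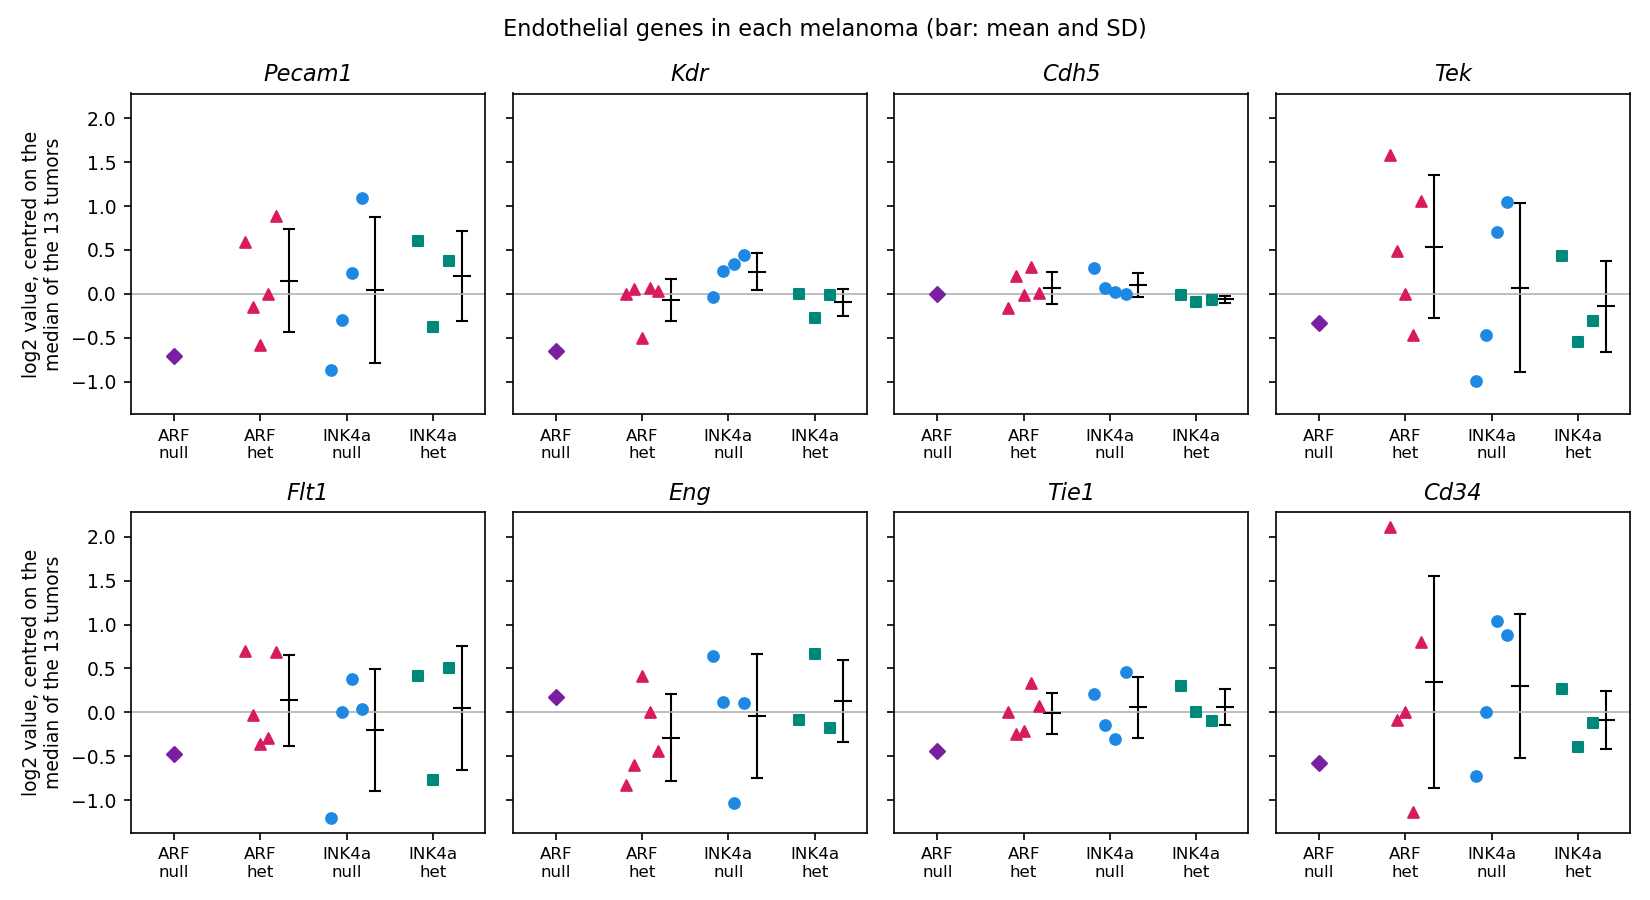
Centred log2 value of each of the 8 endothelial genes (vertical axis, 0 = median of the 13 tumors) in every melanoma, by genotype group from ARF null to INK4a heterozygous. Each point is 1 tumor, and the bars beside the points are the mean and SD of groups with over 1 tumor. The groups overlap widely for Cd34, Tek, Pecam1 and Flt1, and Cdh5 stays between -0.16 and 0.30 in all tumors.

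The 2 junction genes behaved differently. Pecam1 was at -0.70 in the ARF null tumor and at 0.59, -0.15, -0.58, 0.00 and 0.89 in ARF heterozygous tumors 12, 13, 14, 8 and 9. It was at -0.87, -0.29, 0.23 and 1.09 in INK4a null tumors 1.2, 2.2, 3 and 7.2, and at 0.60, -0.38 and 0.37 in INK4a heterozygous tumors 15, 5.2 and 6.2. Each genotype thus held tumors near both ends of the range, and the highest and the lowest tumor were both INK4a null. Cdh5 ran between -0.16 (tumor 12) and 0.30 (tumor 8) in ARF-deficient tumors with a median of 0.00, and between -0.09 (tumor 5.2) and 0.30 (tumor 1.2) in INK4a-deficient tumors with a median of 0.00.

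Of the VEGF receptors, Flt1 was at -0.48 in the ARF null tumor and at 0.70, -0.03, -0.36, -0.30 and 0.68 in ARF heterozygous tumors 12, 13, 14, 8 and 9. It was at -1.21, 0.00, 0.38 and 0.03 in INK4a null tumors 1.2, 2.2, 3 and 7.2, and at 0.41, -0.77 and 0.50 in INK4a heterozygous tumors 15, 5.2 and 6.2. Tumors 12 and 9 were the highest and tumors 1.2 and 5.2 the lowest, and the genotypes overlapped. Kdr ran between -0.66 and 0.07 in ARF-deficient tumors (median 0.02) and between -0.28 and 0.45 in INK4a-deficient tumors (median 0.00). Its low end was held by ARF tumors 10 (-0.66) and 14 (-0.50), and its 3 highest values, 0.27, 0.34 and 0.45, were in INK4a null tumors 2.2, 3 and 7.2.

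Of the angiopoietin receptor and its relative, Tek was at -0.33 in the ARF null tumor and at 1.58, 0.49, 0.00, -0.46 and 1.06 in ARF heterozygous tumors 12, 13, 14, 8 and 9. It was at -0.998, -0.46, 0.70 and 1.04 in INK4a null tumors 1.2, 2.2, 3 and 7.2, and at 0.44, -0.55 and -0.31 in INK4a heterozygous tumors 15, 5.2 and 6.2. High and low tumors were again found in both genotypes. Tie1 stayed between -0.44 and 0.33 in ARF-deficient tumors (median -0.11) and between -0.30 and 0.46 in INK4a-deficient tumors (median 0.00).

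Cd34 was at -0.58 in the ARF null tumor and at 2.12, -0.08, 0.01, -1.14 and 0.80 in ARF heterozygous tumors 12, 13, 14, 8 and 9. It was at -0.72, 0.00, 1.04 and 0.88 in INK4a null tumors 1.2, 2.2, 3 and 7.2, and at 0.27, -0.39 and -0.12 in INK4a heterozygous tumors 15, 5.2 and 6.2. Both ends of its range lay within the ARF heterozygous group, in tumors 12 and 8. Eng ran the other way: it was at 0.17 in the ARF null tumor and at -0.82, -0.60, 0.42, 0.00 and -0.44 in ARF heterozygous tumors 12, 13, 14, 8 and 9. It was at 0.64, 0.12, -1.03 and 0.10 in INK4a null tumors 1.2, 2.2, 3 and 7.2, and at -0.09, 0.67 and -0.18 in INK4a heterozygous tumors 15, 5.2 and 6.2. The co-receptor was thus high in tumors 1.2 and 5.2, where Flt1 and Tek were low, and low in tumors 3 and 12, where Cd34 was high.

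The first comparison was that of the study, ARF-deficient against INK4a-deficient melanomas with zygosities pooled. For each of the 8 genes the 95% interval of the difference in limma included 0. Tek averaged 0.39 ± 0.81 in ARF-deficient tumors (SD, n = 6) and -0.02 ± 0.75 in INK4a-deficient tumors (SD, n = 7), a log2 difference of 0.41 (95% interval -0.46 to 1.28, limma adjusted p = 0.911). Kdr averaged -0.17 ± 0.32 in ARF-deficient and 0.10 ± 0.25 in INK4a-deficient tumors, a difference of -0.27 (95% interval -0.60 to 0.06, limma adjusted p = 0.891). Of the 8 genes, 4 had a higher mean in ARF-deficient tumors (Cdh5, Tek, Flt1 and Cd34) and 4 a lower one (Pecam1, Kdr, Eng and Tie1), with a median difference of -0.04, against 0.01 over all 22626 probe sets. At an adjusted p under 0.05, limma called 0 of the 8 and 0% of all probe sets, the lowest adjusted p of any probe set being 0.708. Of the 8 genes 0, and of all probe sets 4.93%, had an unadjusted p under 0.05. Kdr was under it in 3 of 20 alternative fits in limma, and the other 7 genes in 0 of 20. In 0 of the 8 did the groups fail to overlap, as they did for 0.11% of probe sets.

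The intervals show what these arrays could have missed. For Cdh5, the interval of the difference, -0.16 to 0.22, left room for a mean in ARF-deficient tumors between 0.893 and 1.16 times that in INK4a-deficient tumors. For Cd34 the difference was 0.05 with an interval of -0.96 to 1.06, which covers 0.514 to 2.09 times. Pecam1 differed by -0.10 (-0.83 to 0.63), Flt1 by 0.13 (-0.54 to 0.80), Eng by -0.25 (-0.85 to 0.36) and Tie1 by -0.14 (-0.46 to 0.18). Exact permutation of the 6 and 7 labels, two-sided, gave p between 0.132 (Kdr) and 0.924 (Cd34) for single genes, where the smallest p it can give is 0.000583. The exact Mann-Whitney test, which the methods name, also called 0 of the 8 at an unadjusted p under 0.05, and 3.46% of all probe sets.

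**Figure D2:**
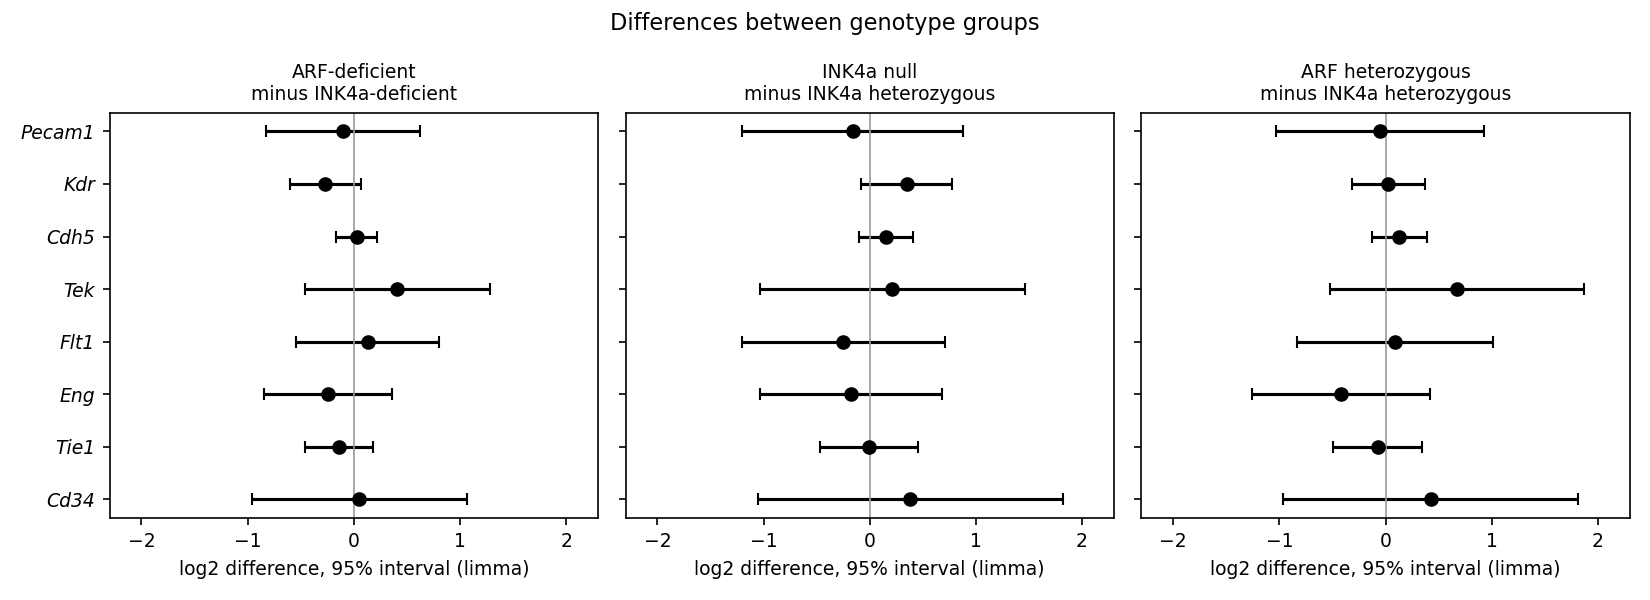
Differences in mean centred log2 value between genotype groups (horizontal axis) for the 8 endothelial genes, with 95% intervals from limma, in the 3 comparisons. Points are differences and bars are intervals. Every interval crosses 0, and those of Cd34 and Tek are the widest.

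The second comparison set INK4a null (n = 4) against INK4a heterozygous tumors (n = 3), by genotype label. The labels do not say whether heterozygous tumors kept their remaining INK4a allele. Again 0 of the 8 genes passed an adjusted p under 0.05 in limma, against 0.128% of all probe sets, and 0 passed an unadjusted p under 0.05, against 14.1% of all probe sets. In the alternative fits, Kdr had an unadjusted p under 0.05 in 1 of 13. Kdr averaged 0.25 ± 0.21 in null tumors and -0.10 ± 0.16 in heterozygous tumors (SD), a log2 difference of 0.35 with a 95% interval of -0.08 to 0.78 (limma adjusted p = 0.472). Cdh5 was the 1 gene of the 8 whose groups did not overlap, as they did not for 11.2% of all probe sets. Its values were 0.30, 0.07, 0.02 and 0.00 in null tumors 1.2, 2.2, 3 and 7.2, against -0.02, -0.09 and -0.07 in heterozygous tumors 15, 5.2 and 6.2. The difference was 0.16 (95% interval -0.10 to 0.41, limma adjusted p = 0.608), and the exact permutation p was 0.0857, two-sided, where the smallest possible is 0.0286. Of the other genes, Tek (0.21) and Cd34 (0.38) had higher means in null tumors, and Pecam1 (-0.16), Flt1 (-0.25), Eng (-0.17) and Tie1 (-0.01) lower ones. The median difference over the 8 was 0.08, against 0.04 over all probe sets.

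The third comparison stayed within 1 zygosity, ARF heterozygous (n = 5) against INK4a heterozygous tumors (n = 3). It shares the INK4a heterozygous tumors with the second comparison and 8 tumors with the first. At an adjusted p under 0.05, limma called 0 of the 8 genes and 0.00442% of all probe sets, and at an unadjusted p under 0.05, 0 of the 8 and 13.1% of all probe sets. The groups did not overlap for 0 of the 8 genes and 7.85% of all probe sets. Tek averaged 0.53 ± 0.81 in ARF heterozygous and -0.14 ± 0.52 in INK4a heterozygous tumors (SD), a log2 difference of 0.68 with a 95% interval of -0.52 to 1.87 (limma adjusted p = 0.631). Eng averaged -0.29 ± 0.50 in ARF heterozygous and 0.13 ± 0.47 in INK4a heterozygous tumors, a difference of -0.42 (-1.26 to 0.42, limma adjusted p = 0.680). Cd34 differed by 0.42, Cdh5 by 0.13, Flt1 by 0.09, Kdr by 0.03, Pecam1 by -0.05 and Tie1 by -0.07, each with an interval across 0.

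While no difference between genotypes passed the threshold, some of the genes were tied to one another over the 13 tumors. Pecam1, Tek, Flt1 and Cd34 formed a group, picked out after its values were seen, in which all 6 pairs moved together, with r between 0.668 and 0.900 and rho between 0.670 and 0.869. Each of these 6 pairs passed an adjusted p under 0.05 by both measures (100000 permutations of the tumors, two-sided, Benjamini-Hochberg over the 28 pairs of the 8 genes). Within the 6 ARF-deficient tumors r was between 0.656 and 0.958 in these pairs, and within the 7 INK4a-deficient tumors between 0.660 and 0.951. The sign was thus the same within either genotype. With the 2 tumors farthest from the median of the first gene of each pair left out, r was between 0.623 and 0.902.

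The closest pair was Tek and Cd34, at r = 0.900 (permutation p = 4e-05, adjusted p = 0.00112) and rho = 0.869 (adjusted p = 0.00490). Without tumors 12 and 9 its r was 0.833. Of all 22625 other probe sets, Cd34 was the 14th most correlated with Tek, and Tek the 4th most correlated with Cd34. Pecam1 and Flt1 followed at r = 0.809 (adjusted p = 0.00952) and rho = 0.852 (adjusted p = 0.00490), Pecam1 and Tek at r = 0.785 (adjusted p = 0.0120), Tek and Flt1 at r = 0.770 (adjusted p = 0.0120), Flt1 and Cd34 at r = 0.725 (adjusted p = 0.0208) and Pecam1 and Cd34 at r = 0.668 (adjusted p = 0.0343). Pecam1 and Cd34 was the least stable of them, passing the threshold no longer in 7 of 16 alternatives. These pairs ranked lower among the 22625 probe sets. By correlation with Pecam1, Flt1 was 35th, Tek 55th and Cd34 308th. With Flt1, Pecam1 was 196th, Tek 458th and Cd34 768th. With Tek, Pecam1 was 277th and Flt1 331st, and with Cd34, Flt1 was 376th and Pecam1 730th. The share of pairs of any probe sets that would pass the same threshold was not tested.

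**Figure D3:**
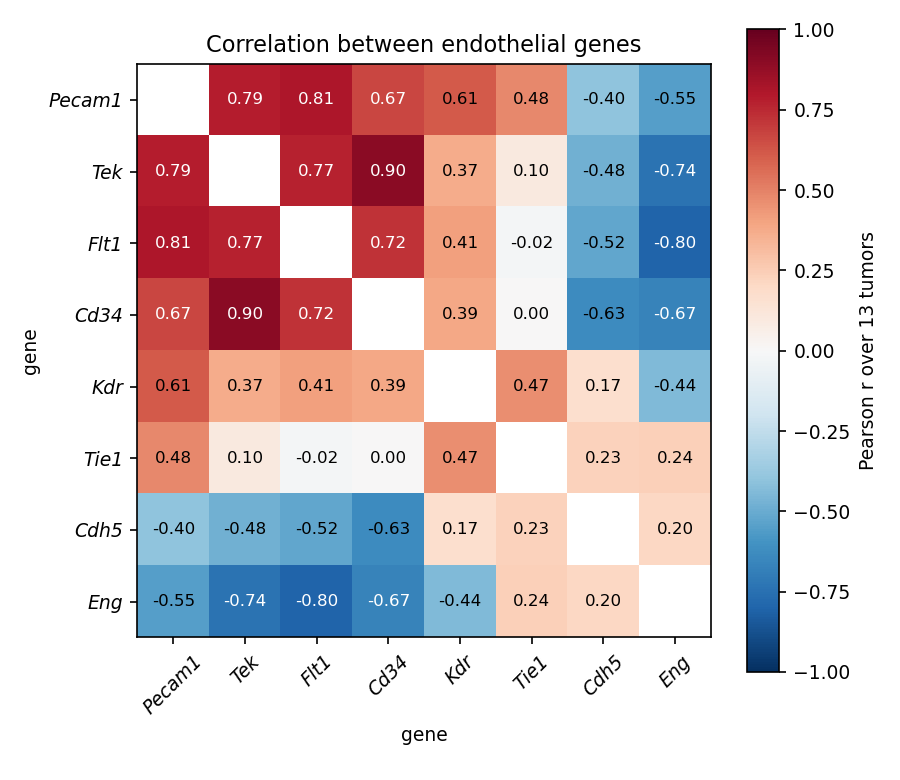
Pearson r over the 13 melanomas for each of the 28 pairs of endothelial genes (rows and columns), with colour from blue (-1) to red (1). Pecam1, Tek, Flt1 and Cd34 form a red block, Eng and Cdh5 are blue against that block, and Tie1 is pale against Tek, Flt1 and Cd34.

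Eng moved against the group. Its r was -0.801 with Flt1 (adjusted p = 0.00952, rho -0.808), -0.736 with Tek (adjusted p = 0.0208, rho -0.765), -0.671 with Cd34 (adjusted p = 0.0343, rho -0.604) and -0.553 with Pecam1 (adjusted p = 0.119, rho -0.643). By rho, Eng passed with Flt1 (adjusted p = 0.0133) and Tek (adjusted p = 0.0159) and not with Cd34 (adjusted p = 0.0871). Without tumors 3 and 12, the 2 farthest in Eng, r with Cd34 was -0.391, so that pair rests on them, and it no longer passed in 7 of 16 alternatives. Within the ARF-deficient tumors Eng had an r between -0.830 and -0.689 with the 4 genes, and within the INK4a-deficient tumors between -0.792 and -0.490. Endothelial genes as a set thus did not rise and fall as 1 block in these values: of 28 pairs, 18 had r above 0 and 10 below it, with a median of 0.219.

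Cdh5, Kdr and Tie1 had no pair past the threshold over the 13 tumors as deposited. Cdh5 had r between -0.631 and -0.399 with the 4 genes of the group (adjusted p at least 0.0592), and rho between -0.402 and -0.267. Kdr, the main VEGF-A receptor, came closest to Pecam1, at r = 0.611 (adjusted p = 0.0624), and its r with Flt1, the other VEGF receptor, was 0.412 (adjusted p = 0.253). By correlation with Kdr, Pecam1 was 175th of 22625 probe sets, within the span of ranks in the group. By correlation with Pecam1, Kdr was 545th. Tie1 and Tek, which act together at the membrane, had an r of 0.10 (adjusted p = 0.804), and Kdr and Tie1 one of 0.466 (adjusted p = 0.191). Some of these pairs passed in an alternative. With quantile normalization, Pecam1 passed with Kdr (r = 0.765, adjusted p = 0.0129) and with Tie1 (r = 0.727, adjusted p = 0.0232). With INK4a heterozygous tumor 5.2 left out, Cdh5 passed with Flt1 (r = -0.703, adjusted p = 0.0332) and with Cd34 (r = -0.726, adjusted p = 0.0332). In all, 9 of 28 pairs passed by r and 8 by rho. The 9 became 5 without INK4a null tumor 1.2 and 5 without ARF heterozygous tumor 12.

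Set against the mean of the other 7 genes, Pecam1 had r = 0.886 and stood 8th among 22619 probe sets, as a description over the 13 tumors. Tek had r = 0.808 (27th), Cd34 0.706 (174th), Flt1 0.689 (266th), Kdr 0.520 (1682nd) and Tie1 0.289 (4609th). Cdh5 (-0.502) and Eng (-0.726) ran against the mean of the others. These means were of unscaled values, so genes with a wide spread weighed most. Cd34 had an SD of 0.87 and Tek of 0.78, against 0.14 for Cdh5. The mean of all 8 was highest in INK4a null tumor 7.2 (0.51) and ARF heterozygous tumor 12 (0.50), and lowest in ARF null tumor 10 (-0.38) and INK4a null tumor 1.2 (-0.34). It averaged 0.03 ± 0.34 in ARF-deficient tumors (SD, n = 6) and 0.04 ± 0.29 in INK4a-deficient tumors (SD, n = 7). Outside the 8, the probe sets most like that mean were 1419186_a_at (r = 0.973) and 1424374_at (r = 0.930), and those least like it were 1425565_at (r = -0.862) and 1424142_at (r = -0.860). The tables used here do not pair them with genes.

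**Figure D4:**
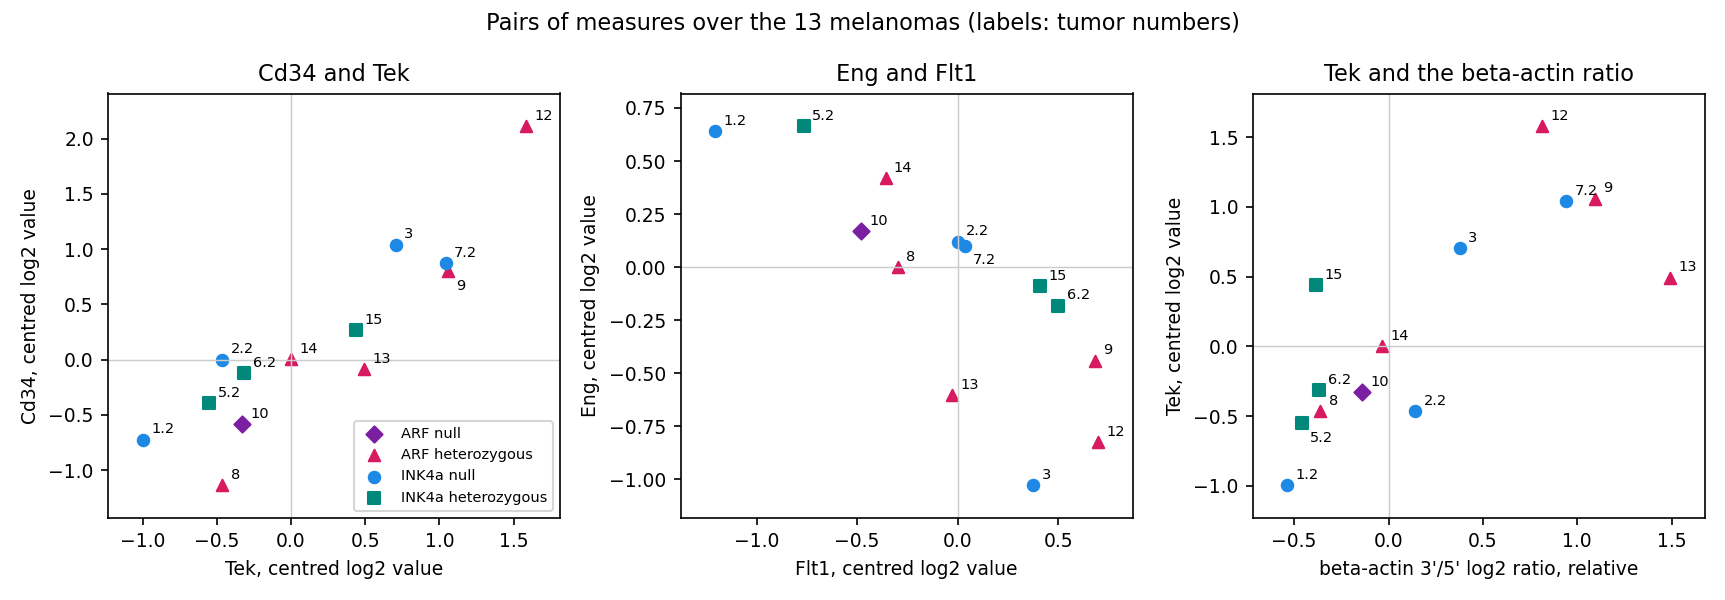
Cd34 against Tek, Eng against Flt1, and Tek against the 3'/5' ratio of beta-actin, all centred log2 values, with 1 point per melanoma, labelled by tumor number and marked by genotype group. Cd34 and Tek rise together (r = 0.900), Eng falls as Flt1 rises (r = -0.801), and Tek is high in the tumors with a high ratio (r = 0.770).

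A measure of RNA quality moved with Tek and, short of the threshold, with Cd34 and against Eng. The array carries control probe sets at the 3' and 5' ends of beta-actin, and a high log2 ratio of 3' to 5' is a known sign of shortened RNA; here it is relative to the other tumors. It was highest in ARF heterozygous tumors 13 (1.49), 9 (1.09) and 12 (0.81) and INK4a null tumor 7.2 (0.94), where the beta-actin 3' probe set itself was also lowest, between -1.24 and -0.65. The ratio averaged 0.48 ± 0.76 in ARF-deficient tumors (SD, n = 6) and -0.04 ± 0.55 in INK4a-deficient tumors (SD, n = 7). Tek followed it at r = 0.770 (permutation p = 0.00243, adjusted p = 0.0160 over 16 relations) and rho = 0.784 (adjusted p = 0.00976). Its r was 0.846 without tumors 13 and 9, 0.743 within ARF-deficient and 0.770 within INK4a-deficient tumors. The other 7 genes did not pass: Eng had r = -0.628 (adjusted p = 0.0610), Cd34 0.605 (adjusted p = 0.0625), Flt1 0.505, Pecam1 0.497, Kdr 0.393, Cdh5 -0.09 and Tie1 -0.09. The share of all probe sets that would pass against the ratio was not tested. Without tumors 13 and 9, r was 0.829 for Cd34, 0.474 for Kdr and -0.557 for Eng. Within ARF-deficient and INK4a-deficient tumors r was 0.561 and 0.830 for Cd34, 0.554 and 0.915 for Kdr, and -0.808 and -0.429 for Eng. With the ratio as a covariate in limma, the difference in Tek between ARF-deficient and INK4a-deficient tumors was -0.05 in place of 0.41, and that between ARF heterozygous and INK4a heterozygous tumors -0.29 in place of 0.68. For Kdr, the first of these differences was -0.43 in place of -0.27, with a 95% interval of -0.71 to -0.15 and an unadjusted limma p of 0.00609, while the adjusted p was 0.99999.

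Flt1, Tek and Eng, and Cd34 by r alone, were also correlated with the main axis of variation of the arrays. The first principal component held 41.5% of the variance over all probe sets, with its sign set so that Flt1 is positive. It was drawn from all probe sets, these genes among them. The share of probe sets that would pass against it was not tested. Flt1 had r = 0.860 with it (adjusted p = 0.00320, rho 0.863), Eng -0.760 (adjusted p = 0.0160), Tek 0.689 (adjusted p = 0.0446) and Cd34 0.650 (adjusted p = 0.0476). By rho, Tek (0.779, adjusted p = 0.00976) and Eng (-0.791, adjusted p = 0.00976) also passed, while Cd34 did not (adjusted p = 0.0578). Without tumors 12 and 1.2, at its 2 ends, r was 0.809 for Flt1, -0.641 for Eng, 0.486 for Tek and 0.442 for Cd34. The size of r for Tek and Cd34 thus depends in part on those tumors. Within ARF-deficient and INK4a-deficient tumors, r was 0.987 and 0.443 for Tek and 0.964 and 0.422 for Cd34. For Flt1 it was 0.896 and 0.849, and for Eng -0.774 and -0.727. Pecam1 (0.579), Kdr (0.07), Cdh5 (-0.514) and Tie1 (-0.199) did not pass. What part this axis and the beta-actin ratio have in the ties between the genes was not tested.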

How the data were processed

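Each of the 13 melanomas was measured on 1 Affymetrix mouse array. The methods name the design of the array, and whether the 22690 deposited rows cover all of it was not settled. The log2 values were deposited by the authors, who made them in GeneSpringGX. All 22690 rows have a median of 0, so each probe set is centred over the 13 tumors. Their log base, not stated, was assumed to be 2, and how probes were summarized and arrays normalized is not given in the sources used. Array medians lay between -0.05 and 0.05. The second deposited table, the authors' own list of changed probe sets with a score per array, was not used. The 8 members and all lists were chosen with earlier results of these data known. The rule for named genes asked for the 8 members and the probe sets most and least like their mean, of which 2 each are given because no table pairs them with genes. For the same reason, the gene lists and markers in the plan are not analysed here.

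After 64 control rows were left out, 22626 probe sets were fitted in limma (version 3.58.1, under R version 4.3.3) by lmFit and by eBayes without a trend, two-sided, with Benjamini-Hochberg adjustment. ARF-deficient and INK4a-deficient tumors were compared in a fit of 2 groups, and the other comparisons in fits of 3 and 4 groups over all 13 arrays. The single ARF null tumor adds nothing to the spread in the last. Without levels, no expression filter was applied. The script was tested on simulated data. Single genes were compared by exact permutation, and correlations by 100000 permutations. Promoter windows came from a RefSeq table (GRCm38.p6).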

Additional observations from a re-analysis of the deposited data

Results flagged for a closer look

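Kdr in ARF heterozygous tumors had 1 tumor far below the others. Tumor 14 was at -0.50, while the nearest of the other 4 was at 0.00 and all 4 lay between 0.00 and 0.07.

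Cdh5 in INK4a-deficient tumors had 1 tumor far above the others. Tumor 1.2 was at 0.30, against 0.07 in the nearest of the other 6. These were 2 of 32 group checks for a stray tumor, of which chance is known to give about 1 in 20.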

How the results depend on the processing

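In none of the 20, 13 and 14 alternatives to the 3 comparisons did any of the 8 genes pass an adjusted p under 0.05, while several differences turned sign. The other probe sets of the 8 genes could not be tried, and no paired analysis was possible because labels give no shared replicate numbers. Causes were not tested.

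Between ARF-deficient and INK4a-deficient tumors, the following turned sign. With the 3'/5' ratio of beta-actin as covariate, Tek was -0.052, Flt1 -0.11, Eng 0.0083 and Cd34 -0.41, and Kdr kept its sign at -0.43. Among tumors without a decimal ending in their number, Tek was -0.18, Flt1 -0.36, Eng 0.35 and Cd34 -0.47. That fit kept all 6 ARF-deficient tumors but only tumors 3 and 15 of the INK4a-deficient ones, so the endings follow genotype in part. With quantile normalization Flt1 was -0.049 and Cd34 -0.19, with zygosity as covariate Flt1 was -0.019, and with array weights Cdh5 was -0.000704. Kdr had an unadjusted limma p of 0.00609 with the beta-actin ratio, 0.0327 with array weights (difference -0.38, 95% interval -0.73 to -0.037) and 0.0490 without INK4a heterozygous tumor 5.2. With 1 tumor left out, Tek ran between 0.17 (without ARF heterozygous tumor 12) and 0.59 (without INK4a null tumor 7.2), Kdr between -0.33 (without INK4a heterozygous tumor 5.2) and -0.17 (without ARF null tumor 10), Pecam1 ran between -0.28 and 0.063, Cdh5 between -0.022 and 0.072, Flt1 between -0.056 and 0.23, and Cd34 between -0.33 and 0.32.

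Between INK4a null and INK4a heterozygous tumors, Tek was -0.18 and Eng 0.041 with array weights, and Tek was -0.41, Eng 0.16 and Cd34 -0.22 with the beta-actin ratio. Kdr had an unadjusted limma p of 0.04998 without INK4a null tumor 1.2 (difference 0.44). With 1 tumor left out, Pecam1 ran between -0.51 and 0.14, Tek between -0.11 and 0.57, Flt1 between -0.65 and 0.089, Eng between -0.40 and 0.16, and Tie1 between -0.14 and 0.11.

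Between ARF heterozygous and INK4a heterozygous tumors, Kdr was -0.082 and Flt1 -0.020 with quantile normalization, and Kdr was -0.048 and Flt1 -0.075 with array weights. With the beta-actin ratio, Kdr was -0.17, Tek -0.29, Flt1 -0.49, Eng 0.096 and Cd34 -0.49. With 1 tumor left out, Pecam1 ran between -0.34 and 0.15, Kdr between -0.064 and 0.13, Flt1 between -0.31 and 0.32, Tie1 between -0.16 and 0.041, and Cd34 between -0.020 and 0.79.

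The counts over all probe sets moved more. At an unadjusted p under 0.05 the first comparison gave 1115, and 664 with the beta-actin ratio, 1708 with zygosity and 665 without the tumors whose numbers end in decimals. With 1 tumor left out it gave 676 (without ARF heterozygous tumor 13) to 1807 (without INK4a null tumor 3), and 1772 without ARF heterozygous tumor 8. The second comparison gave 29 at an adjusted p under 0.05, and 1 with quantile normalization, 3149 with array weights, 15 with the beta-actin ratio and 0 with INK4a arrays alone. With 1 tumor left out it gave 0 (without null tumor 2.2 or heterozygous tumor 6.2) to 620 (without heterozygous tumor 5.2). Its unadjusted count of 3185 was 6650 with array weights, and 1822 (without heterozygous tumor 6.2) to 4250 with 1 tumor left out. The third gave 1 at an adjusted p under 0.05, and 0 with quantile normalization, with the beta-actin ratio and with heterozygous arrays alone, 2 with arrays centred on their median, and 1820 with array weights. With 1 tumor left out it gave 0 to 104 (without INK4a heterozygous tumor 5.2). Its unadjusted count of 2954 was 5939 with array weights and 1456 with the beta-actin ratio, and 2021 to 4039 with 1 tumor left out.

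The 9 pairs of genes past the threshold were 5 to 11 with 1 tumor left out, with 5 without INK4a null tumor 1.2 or ARF heterozygous tumor 12. Pairs that passed only in an alternative were Pecam1 and Kdr (quantile normalization, and without INK4a null tumor 2.2), Pecam1 and Tie1 (quantile normalization), Cdh5 and Flt1 (without INK4a heterozygous tumor 5.2), Cdh5 and Cd34 (without INK4a heterozygous tumor 5.2 or 6.2) and Pecam1 and Eng (without INK4a null tumor 7.2). Of the pairs near 0, Tek and Tie1 had r = -0.167 without tumors 7.2 and 12 and ran between -0.096 and 0.24 with 1 tumor left out. Flt1 and Tie1 had rho = 0.129 and r = 0.295 with quantile normalization, and ran between -0.153 and 0.164. Tie1 and Cd34 had rho = -0.019 and r = -0.286 without tumors 7.2 and 12, and ran between -0.156 and 0.201. Cdh5 and Eng ran between -0.024 and 0.373. Array values hold no levels here, so signal over background could not be judged.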
